A study of Mus musculus with 6 samples.

Results

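Grm8, Hunk, Gna14, Galnt5, Lrrc7 and St18 are 6 of the 33696 genes counted in single nuclei of the mouse left ventricle. They were selected on their levels in cardiac fibroblasts of mice fed empagliflozin, so the difference between that group and the others is described below with no test. In fibroblast-type nuclei of the treated mice, 5 of them (Grm8, Hunk, Gna14, Galnt5 and St18) were lower, and Lrrc7 was higher, than in each of the other 4 libraries. Nuclei were called fibroblast-type when they held at least 3 UMIs (unique molecular identifiers, 1 per captured RNA molecule) of Pdgfra, Dcn, Abca8a and Col8a1 together, at most 1 UMI of Pecam1, Cdh5 and Rgs5 together, and less than 1% of UMIs from Ttn, Ryr2 and Myh6. There were 14771 fibroblast-type nuclei among 46005 nuclei that passed the filters.

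The left ventricles came from male mice aged 12 weeks, in 3 groups of n = 2 libraries. WT-CD mice were wild-type littermates on control diet (CD). R403Q-CD mice were heterozygous for a substitution in the cardiac myosin heavy chain (Myh6+/R404Q in the labels, named R403Q), a model of hypertrophic cardiomyopathy, and ate the same diet. R403Q-EMPA mice carried the same mutation and ate that diet with 0.15 mg of empagliflozin (EMPA) per g, about 15 mg/kg body weight. Diets began at 9 to 10 weeks of age, which leaves 2 to 3 weeks of feeding at the stated age, although the labels also name a longer feeding period. EMPA blocks sodium-glucose cotransporter 2, the main glucose transporter of the proximal kidney tubule. There was no wild-type group on EMPA, so all treated mice carried the mutation, and the labels do not say how many mice gave each library. The p-values below therefore measure the spread between these libraries, which may be technical.

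The members belong to unrelated families. Grm8 encodes a metabotropic glutamate receptor, a receptor that couples to inhibitory G proteins and is best known from presynaptic terminals. Gna14 encodes an alpha subunit of the Gq class, which links receptors to phospholipase C beta and calcium release. Hunk encodes a serine/threonine kinase related to AMP-activated protein kinase. Galnt5 encodes a transferase that places N-acetylgalactosamine on serine and threonine, the first step of mucin-type O-glycosylation. Lrrc7 encodes densin, a leucine-rich repeat scaffold of the postsynaptic density. St18 encodes a zinc finger transcription factor of the MYT1 family. Cardiac fibroblasts make and turn over the extracellular matrix of the heart, and activated fibroblasts express genes such as Postn.

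Upstream sequences are shown for Grm8, Hunk and Gna14, the lower members with the most counts, and for Lrrc7, the higher one, to let a reader see whether they share simple promoter elements. RefSeq start sites (GRCm38.p6, which is not the build of the counts) were matched by symbol for 5 of 6 members, and St18 had no entry. Each line gives the 250 bases before the start, 5′ to 3′ on the gene's strand, and for Grm8 the first of 3 listed starts. Capitals mark matches, on either strand, to the AP-1 element TGANTCA, to the TEAD element with letters CATTCC, to the TATA box with letters TATAAA, to the CCAAT box, or to the GC box with letters GGGCGG. No 2 of these letter strings overlap one another in the windows shown.
Grm8, chr6:28135147-28135396 (minus strand): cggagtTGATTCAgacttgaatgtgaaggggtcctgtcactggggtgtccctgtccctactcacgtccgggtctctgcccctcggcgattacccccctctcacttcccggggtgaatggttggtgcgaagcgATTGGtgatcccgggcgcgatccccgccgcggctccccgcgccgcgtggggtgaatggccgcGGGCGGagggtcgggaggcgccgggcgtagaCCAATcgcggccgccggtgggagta
Hunk, chr16:90386147-90386396 (plus strand): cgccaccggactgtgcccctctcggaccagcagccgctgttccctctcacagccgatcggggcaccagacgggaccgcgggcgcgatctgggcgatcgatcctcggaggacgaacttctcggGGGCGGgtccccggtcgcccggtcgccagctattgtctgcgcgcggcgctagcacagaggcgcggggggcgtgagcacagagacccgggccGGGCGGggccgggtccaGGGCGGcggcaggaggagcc
Gna14, chr19:16435417-16435666 (plus strand): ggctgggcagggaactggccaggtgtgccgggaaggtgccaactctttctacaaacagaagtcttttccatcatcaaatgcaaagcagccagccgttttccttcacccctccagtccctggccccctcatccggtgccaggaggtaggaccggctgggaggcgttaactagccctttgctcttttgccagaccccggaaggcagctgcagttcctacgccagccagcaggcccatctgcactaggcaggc
Lrrc7, chr3:158561762-158562011 (minus strand): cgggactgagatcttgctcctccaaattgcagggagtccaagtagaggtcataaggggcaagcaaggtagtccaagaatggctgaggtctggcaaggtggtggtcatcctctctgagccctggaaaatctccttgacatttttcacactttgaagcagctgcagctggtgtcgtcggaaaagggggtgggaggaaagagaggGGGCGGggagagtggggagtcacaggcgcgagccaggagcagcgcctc

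None of the 5 letter strings was found in all 4 windows. The Grm8 window held 1 AP-1 match, 2 CCAAT boxes and 1 GC box, the Hunk window 3 GC boxes, the Lrrc7 window 1 GC box and the Gna14 window none of these. Among 32851 upstream windows of the same length, leaving out chromosome 18, 6.75% held TGANTCA, 12.6% CATTCC, 12.4% TATAAA, 33.8% CCAAT and 32.7% GGGCGG. CpG dinucleotides numbered 29 for Grm8 and 34 for Hunk but 7 for both Gna14 and Lrrc7, against a median of 6 over all windows. The Grm8 values hold for its listed start 1 only. The windows of its starts 2 and 3 held 8 and 2 CpG dinucleotides and no AP-1 match or GC box. Start 2 had 1 TEAD match and 1 CCAAT box. These are letter matches in one window per start and are not evidence of binding.

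The libraries held 31787308 to 45397128 UMIs, and 6409 to 9514 nuclei per library were kept. Between 34.8% and 43.3% of the kept nuclei met no class gate. Any pair of libraries shared 23 to 56 barcodes. Fibroblast-type nuclei numbered 3986 and 2705 (WT-CD), 2515 and 2024 (R403Q-CD), and 1638 and 1903 (R403Q-EMPA), with median depths of 2510 UMIs (R403Q-EMPA replicate 2) to 4492 UMIs (R403Q-CD replicate 2). Dcn was seen in 94.4% to 97.7% of them and Pdgfra in 70.5% to 78.7%, while the leukocyte gene Ptprc was seen in 0.788% to 2.58%. Some measures moved with the groups. UMIs of the fibroblast markers themselves lay at 9644 to 11633 CPM (UMIs of a gene per 1e+06 UMIs of the class) in WT-CD, 9707 to 9774 in R403Q-CD and 8146 to 8534 in R403Q-EMPA. The heat shock genes Hspa1a and Hspa1b summed to 1.48 to 3.20, 2.50 to 2.66 and 18.8 to 28.1 CPM in that order. Pericyte markers (Rgs5, Abcc9, Kcnj8 and Notch3) summed in fibroblast-type nuclei to 300 to 377, 279 to 312 and 139 to 218 CPM, with each of these 4 genes detected. The cardiomyocyte genes Ttn, Ryr2 and Myh6 summed to 614 to 621, 932 and 844 to 953 CPM, higher in both groups with the mutation. The sum of 1 further marker list, not reported here, was also lower in both treated libraries than in the other 4. Their part in the results below was not tested.

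Grm8 (ENSMUSG00000024211) lay at 144 and 102 CPM (WT-CD), 97.0 and 75.4 CPM (R403Q-CD) and 9.35 and 19.0 CPM (R403Q-EMPA). The group means were 123 ± 29.7, 86.2 ± 15.3 and 14.2 ± 6.85 CPM (SD, n = 2), and no 2 groups overlapped. These levels rest on 1710, 1167, 932, 709, 65 and 97 UMIs. In R403Q-EMPA the log2 fold change was -2.67 (SE 0.30) against R403Q-CD and -3.16 (SE 0.30) against WT-CD, or 6.35-fold and 8.91-fold lower in edgeR. Because both comparisons use the same treated libraries, they are not independent of each other.

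Gna14 (ENSMUSG00000024697) lay at 89.3 and 88.6 CPM (WT-CD), 70.8 and 52.0 CPM (R403Q-CD) and 19.9 and 24.7 CPM (R403Q-EMPA). The group means were 89.0 ± 0.467, 61.4 ± 13.3 and 22.3 ± 3.45 CPM (SD, n = 2), again with no overlap. The log2 fold change in R403Q-EMPA was -1.50 (SE 0.19) against R403Q-CD and -2.02 (SE 0.19) against WT-CD.

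Hunk (ENSMUSG00000053414) was nearly level in the untreated groups, at 47.5 and 48.7 CPM (WT-CD) and 44.5 and 41.5 CPM (R403Q-CD), and lay at 12.2 and 18.6 CPM in R403Q-EMPA. The group means were 48.1 ± 0.891, 43.0 ± 2.18 and 15.4 ± 4.54 CPM (SD, n = 2). The log2 fold change in R403Q-EMPA was -1.53 (SE 0.20) against R403Q-CD and -1.68 (SE 0.20) against WT-CD.

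Galnt5 (ENSMUSG00000026828) was sparse. It gave 72 and 57 UMIs (WT-CD), 34 and 31 UMIs (R403Q-CD) and 5 and 2 UMIs (R403Q-EMPA). As levels these were 6.06 and 4.98, 3.54 and 3.30, and 0.719 and 0.393 CPM, in an order that left the groups apart. The fitted log2 fold change in R403Q-EMPA was -2.57 (SE 0.45) against R403Q-CD and -3.24 (SE 0.43) against WT-CD. The treated levels lay within the range of endothelial-type nuclei (0 to 0.996 CPM), whose top value came from WT-CD replicate 1. In the treated libraries the endothelial-type nuclei held 0 UMIs of Galnt5. With 5 and 2 UMIs in treated fibroblast-type nuclei, the size of this difference is not determined by these counts.

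St18 (ENSMUSG00000033740) was the sparsest of the lower members, with 37 and 24 UMIs (WT-CD), 26 and 17 UMIs (R403Q-CD) and 11 and 2 UMIs (R403Q-EMPA). Its levels were 3.11 and 2.10, 2.71 and 1.81, and 1.58 and 0.393 CPM. The WT-CD and R403Q-CD libraries overlapped, and the higher R403Q-EMPA library lay just under the lower R403Q-CD library. This order rests in part on single nuclei. In R403Q-CD, 1 nucleus held 13 of the 26 UMIs of replicate 1 and another 9 of the 17 of replicate 2. In WT-CD replicate 2, 1 nucleus held 8 of the 24. The log2 fold change in R403Q-EMPA was -1.13 (SE 0.58) against R403Q-CD and -1.31 (SE 0.57) against WT-CD, and without R403Q-EMPA replicate 2 these became -0.56 and -0.75.

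Lrrc7 (ENSMUSG00000028176), the only member that was higher, gave 10 and 2 UMIs (WT-CD), 14 and 12 UMIs (R403Q-CD) and 76 and 34 UMIs (R403Q-EMPA). Its levels were 0.842 and 0.175, 1.46 and 1.28, and 10.9 and 6.67 CPM. The log2 fold change in R403Q-EMPA was 2.65 (SE 0.48) against R403Q-CD and 4.07 (SE 0.54) against WT-CD, the last of which was 5.48 without WT-CD replicate 1 and 3.42 without WT-CD replicate 2. The counts came from few nuclei: the 76 UMIs of R403Q-EMPA replicate 1 were in 22 nuclei and the 34 UMIs of replicate 2 in 10 nuclei.

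**Figure D1:**
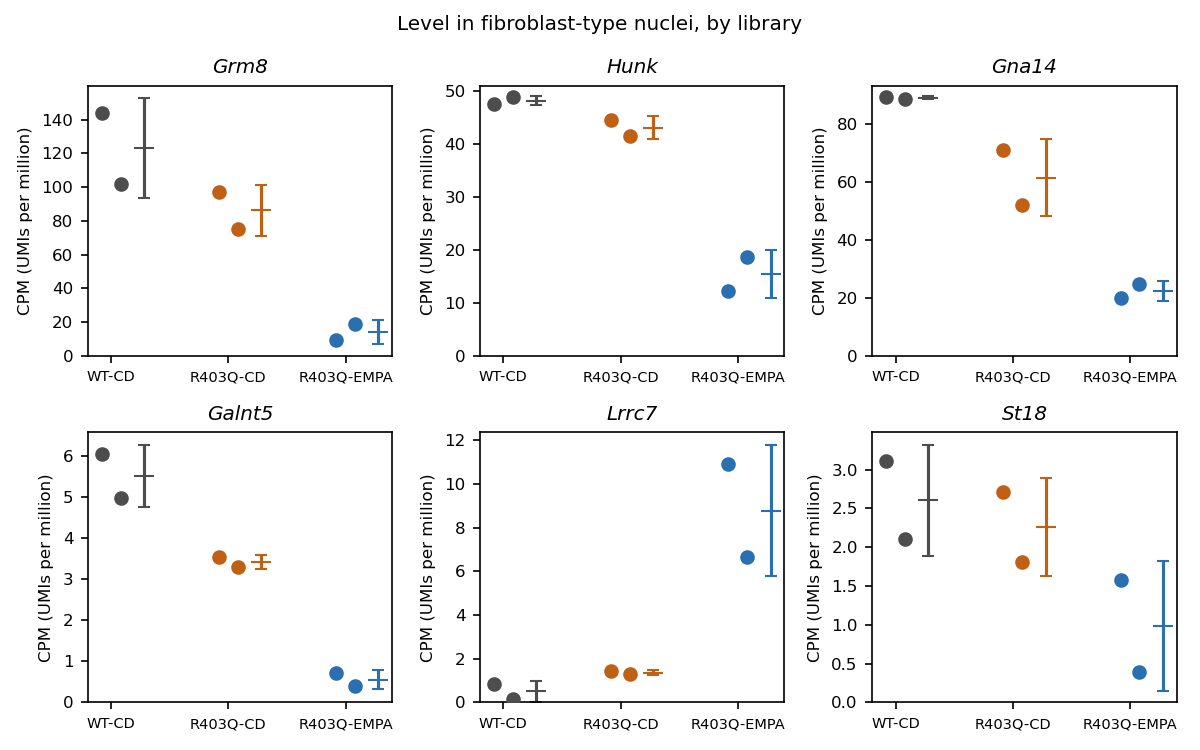
Level of each member in fibroblast-type nuclei in CPM (vertical axis, from 0), 1 point per library, with the group mean ± SD (n = 2) beside the points. Both R403Q-EMPA libraries lie below the other 4 for Grm8, Hunk, Gna14, Galnt5 and St18 and above them for Lrrc7, as the selection of these genes fixed.

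The selection set which way each member lay. For comparison, 13.8% of the 15448 genes tested in fibroblast-type nuclei had both R403Q-EMPA libraries below the other 4, and 15.5% had both above. In edgeR at an adjusted p under 0.05, 66 genes (0.427%) were called between R403Q-EMPA and R403Q-CD, 37 higher and 29 lower, and 169 genes (1.09%) between R403Q-EMPA and WT-CD, 89 higher and 80 lower. These counts moved several-fold with the settings. All 6 members passed the filter on low counts.

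Whether the mutation alone moved these genes is a comparison that the selection did not use directly, although R403Q-CD and WT-CD libraries were the controls in it. None of the 6 members passed the test between R403Q-CD and WT-CD, where edgeR called 0 of 15448 genes (0%), 445 genes had an unadjusted p under 0.05, and DESeq2 called 9. Gna14 had the smallest p of the members, with a log2 fold change of -0.52 (SE 0.17, edgeR unadjusted p = 0.0160, adjusted p = 1.00). The log2 fold change was -0.49 (SE 0.26) for Grm8, -0.67 (SE 0.30) for Galnt5, -0.15 (SE 0.18) for Hunk, -0.18 (SE 0.47) for St18 and 1.42 (SE 0.62) for Lrrc7, each with an adjusted p of 1.00 in edgeR. The Lrrc7 value was 2.82 without WT-CD replicate 1 and 0.77 without WT-CD replicate 2. Both R403Q-CD libraries lay below both WT-CD libraries for 4 members (Grm8, Hunk, Gna14 and Galnt5), as did 14.0% of all genes tested, and above them for Lrrc7, as did 14.5%.

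The share of nuclei with a UMI was compared after drawing 1500 UMIs from each nucleus, since deeper nuclei show more genes. This left out 211 and 33 WT-CD nuclei, 59 and 44 R403Q-CD nuclei and 38 and 94 R403Q-EMPA nuclei that were shallower. Grm8 was then seen in 10.2% and 6.92% of WT-CD, 6.64% and 5.15% of R403Q-CD and 0.938% and 1.77% of R403Q-EMPA nuclei. The 95% Wilson intervals, which cover counting error only, ran from 0.569% to 1.54% and from 1.26% to 2.49% in the treated libraries and from 4.26% upwards in the others. Gna14 was seen in 10.1% and 8.38%, 7.45% and 5.76%, and 2.50% and 2.82%. Hunk was seen in 6.46% and 6.40%, 5.99% and 5.15%, and 1.56% and 2.32%. Fewer nuclei with a UMI thus went with the lower levels of these 3 members. The nuclei that had a UMI also held fewer in the treated libraries, counted without thinning. For Grm8 they held 2.50 and 2.11 UMIs each on average, against 3.39 to 5.18 in the untreated libraries. For Gna14 these were 1.84 and 1.56 against 1.93 to 2.62, and for Hunk 1.33 and 1.23 against 1.42 to 1.63. Without thinning the shares of Grm8 were 12.6% and 9.80%, 9.30% and 6.77%, and 1.59% and 2.42%.

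Among the sparse members, the thinned share was 1.03% and 0.524%, 0.326% and 0.606%, and 0.125% and 0.111% for Galnt5. For Lrrc7 it was 0.106% and 0.0374%, 0.163% and 0.101%, and 0.625% and 0.387%. For St18 it was 0.424% and 0.187%, 0.204% and 0.202%, and 0.250% and 0.0553%, so that the treated and untreated libraries overlapped by this measure. Between R403Q-CD and WT-CD, the exact 2-sided permutation p was 0.333 for Grm8, Hunk and Gna14, the smallest that 2 against 2 libraries allow, 0.667 for Galnt5 and Lrrc7, and 1.00 for St18. Endothelial-type nuclei, taken here as a reference for stray RNA, had median depths of 2043 to 3208 UMIs and showed thinned shares of 0% to 0.138% for Grm8, 0.0691% to 0.248% for Hunk, 0% to 0.350% for Gna14, 0% to 0.261% for Galnt5 and Lrrc7, and 0% to 0.131% for St18. The shares of Grm8, Gna14 and Hunk in fibroblast-type nuclei lay above these in all 6 libraries. Those of Galnt5 in the treated libraries did not, although its endothelial-type range rests on 2 nuclei of 1 library, WT-CD replicate 1. In the treated libraries, 0 of 1858 and 0 of 808 thinned endothelial-type nuclei held Galnt5. Whether the treated fibroblast-type shares of Galnt5 are background was not tested. Those of Lrrc7 in the untreated libraries also lay within the endothelial-type range, but that class is no clean reference for Lrrc7, since 1 nucleus of WT-CD replicate 1 held 19 UMIs of it. In fibroblast-type nuclei, 1 nucleus held 8 of the 14 Lrrc7 UMIs of R403Q-CD replicate 1 and another 9 of the 12 of replicate 2. The share of St18 lay above the endothelial-type range in 5 of 6 libraries.

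In single nuclei, Grm8 and Gna14 were often found together. In WT-CD replicate 1, Gna14 was found in 28.6% of the 385 thinned nuclei with Grm8 and in 8.05% of the 3390 without. The share of Gna14 was higher among nuclei with Grm8 in all 6 libraries, from 15.6% to 28.6% against 2.33% to 8.05%. The treated libraries held 15 and 32 nuclei with Grm8, of which 3 and 5 had Gna14. Hunk was found in 9.73% to 13.5% of nuclei with Grm8 in the untreated libraries, against 4.74% to 6.15% of those without. In the treated libraries it was found in 0 of 15 and 1 of 32 nuclei with Grm8, against 1.58% and 2.31% of those without, numbers too small to compare. Gna14 was found in 25.0% and 16.4% (WT-CD), 19.7% and 6.86% (R403Q-CD) and 4.00% and 14.3% (R403Q-EMPA) of nuclei with Hunk, against 9.12% and 7.84%, 6.67% and 5.70%, and 2.48% and 2.55% of those without. In R403Q-CD replicate 2 and R403Q-EMPA replicate 1 this rested on 7 of 102 and 1 of 25 nuclei with Hunk and the shares were close.

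Fibroblast-type nuclei were divided by 4 marker sets to see where the members lay. A nucleus joined the set with the most UMIs if that was at least 2 and no other set tied, and the rest stayed unassigned. In nuclei of the Fbn2/Pappa/Fgf10 set, Grm8 lay at 342 and 165 CPM (WT-CD), 179 and 202 CPM (R403Q-CD) and 42.5 and 56.5 CPM (R403Q-EMPA). In nuclei of the Kcnip1/Tenm4 set it lay at 248 and 229, 200 and 83.8, and 9.57 and 9.32 CPM, the last resting on 3 and 2 UMIs. In nuclei of the Cd248/Has2/Gfpt2 set it lay at 30.7 and 30.7, 17.5 and 11.8, and 1.21 and 2.56 CPM. Both treated libraries were below all 4 others within each of these sets. Nuclei of the Postn/Cilp/Thbs4 set held 1 Grm8 UMI in all.

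The make-up of the fibroblast-type nuclei also moved with the groups. The Kcnip1/Tenm4 set, 1 of the 2 sets with the highest Grm8 levels, held 453 and 338 nuclei (WT-CD), 300 and 230 nuclei (R403Q-CD) and 73 and 82 nuclei (R403Q-EMPA), or 11.4% and 12.5%, 11.9% and 11.4%, and 4.46% and 4.31% of fibroblast-type nuclei. Refitted without that set, an alternative chosen after seeing the data, the log2 fold change against R403Q-CD was -2.51 for Grm8, -1.42 for Gna14 and -1.42 for Hunk, and against WT-CD it was -2.93, -1.87 and -1.50. The Fbn2/Pappa/Fgf10 set made up 8.33% and 14.8% (WT-CD), 15.5% and 19.2% (R403Q-CD) and 11.2% and 9.04% (R403Q-EMPA), lower in the treated libraries than in R403Q-CD and overlapping WT-CD. Without this set, likewise chosen after seeing the data, the log2 fold change was -2.72 for Grm8, -1.45 for Gna14 and -1.53 for Hunk against R403Q-CD and -3.48, -2.04 and -1.72 against WT-CD. A fit without both sets together was not run.

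Gna14 was found in each of these sets. In unassigned nuclei it lay at 99.3 and 87.7 CPM (WT-CD), 68.2 and 60.8 CPM (R403Q-CD) and 22.7 and 25.4 CPM (R403Q-EMPA), and in nuclei of the Fbn2/Pappa/Fgf10 set at 81.3 and 101, 99.2 and 56.2, and 26.7 and 23.9. In nuclei of the Kcnip1/Tenm4 set it lay at 178 and 195, 141 and 80.0, and 25.5 and 74.6 CPM. The gap was smaller in the Cd248/Has2/Gfpt2 set, at 27.7 and 36.3, 23.1 and 20.3, and 19.4 and 14.5 CPM, and in the Postn/Cilp/Thbs4 set the groups overlapped, at 36.2 and 21.8, 0 and 65.8, and 10.1 and 23.6 CPM on 0 to 15 UMIs per library. Hunk in unassigned nuclei lay at 48.5 and 46.3, 39.3 and 42.9, and 17.5 and 19.1 CPM. Apart from Gna14 in the Postn/Cilp/Thbs4 set, the treated libraries were lowest in each of these.

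In the treated libraries Lrrc7 lay mostly in nuclei of the Postn/Cilp/Thbs4 set, which marks activated fibroblasts. Of its UMIs in R403Q-EMPA, 51 of 76 and 30 of 34 came from that set, or 73.6% of both libraries together. In the untreated libraries the set held 6 of 10 and 0 of 2 Lrrc7 UMIs (WT-CD) and 1 of 14 and 9 of 12 (R403Q-CD), while 8 of the 14 UMIs of R403Q-CD replicate 1 lay in the Kcnip1/Tenm4 set. Within the set it lay at 27.1 and 0 CPM (WT-CD), 6.45 and 39.5 CPM (R403Q-CD) and 34.5 and 142 CPM (R403Q-EMPA), on 65, 39, 34, 42, 264 and 56 nuclei, so the groups overlapped there. Outside the set it lay at 0.343 and 0.177, 1.38 and 0.327, and 4.57 and 0.819 CPM, where 1 treated library overlapped R403Q-CD. In unassigned nuclei alone, both treated libraries lay above the others, which was the case in no marker set. Lrrc7 lay there at 6.33 and 1.32 CPM (17 and 4 UMIs) against 0 to 0.260 CPM in the untreated libraries. Refitted without that set, an alternative chosen after seeing the data, its log2 fold change was 1.62 against R403Q-CD and 3.29 against WT-CD. The set made up 1.63% and 1.44% (WT-CD), 1.35% and 2.08% (R403Q-CD) and 16.1% and 2.94% (R403Q-EMPA) of fibroblast-type nuclei, so that its share was far higher in 1 treated library only. The part of these shares in the Lrrc7 difference was not tested beyond that refit.

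**Figure D2:**
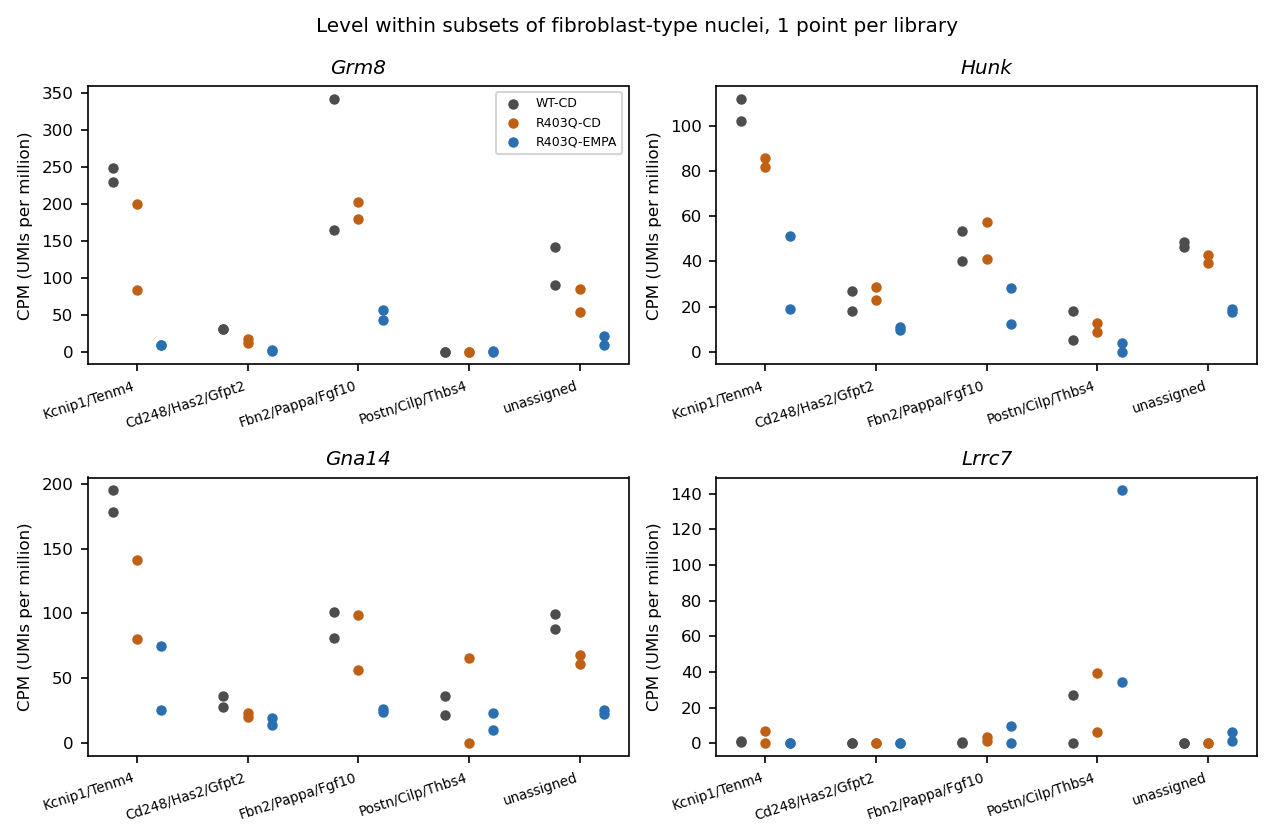
Level of Grm8, Hunk, Gna14 and Lrrc7 in CPM (vertical axis) within 4 marker sets of fibroblast-type nuclei and in the unassigned rest, 1 point per library. Grm8 of the treated libraries lies at 42.5 and 56.5 CPM in the Fbn2/Pappa/Fgf10 set, below the other 4 libraries, while Lrrc7 of the treated libraries is highest in the Postn/Cilp/Thbs4 set, where the groups overlap.

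At the edge of the fibroblast gate the levels of 3 members changed within 1 marker UMI, on few counts. Among nuclei that met the other limits, Grm8 lay at 1.08 CPM (2 UMIs) with 2 fibroblast-marker UMIs, just outside the gate. It lay at 10.4 CPM (10 UMIs) with 3, just inside. Gna14 lay at 6.46 and 23.9 CPM in the same nuclei (12 and 23 UMIs). St18 went the other way, at 32.3 CPM outside and 15.6 CPM inside (60 and 15 UMIs). Hunk lay at 16.7 and 23.9 CPM, but at 31.5 CPM in nuclei with 0 marker UMIs. Galnt5 and Lrrc7 gave 0 UMIs just inside the gate and are not compared.

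Across the other classes, Grm8 and Galnt5 were found almost only in fibroblast-type nuclei, which held 93.1% and 92.2% of their UMIs in all nuclei kept. Grm8 lay at 0 to 1.47 CPM in endothelial-type nuclei and at 1.16 to 12.5 CPM in cardiomyocyte-type nuclei. Galnt5 gave 2 UMIs in endothelial-type nuclei and none in cardiomyocyte-, endocardial-, pericyte- or myeloid-type nuclei. Fewer cells of a type and less RNA per cell cannot be told apart in the share of a gene's UMIs.

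Hunk was also present in endocardial- and myeloid-type nuclei, and the groups did not separate there in the same way. In endocardial-type nuclei, which line the chambers, it lay at 37.9 and 46.2 CPM (WT-CD), 44.5 and 35.1 CPM (R403Q-CD) and 31.1 and 45.6 CPM (R403Q-EMPA), so all groups overlapped. In myeloid-type nuclei it lay at 49.8 and 34.8, 90.8 and 57.9, and 23.4 and 35.6 CPM, on 5 to 25 UMIs per library. The treated libraries were below both R403Q-CD libraries there and overlapped WT-CD.

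Gna14 was found in pericyte-type nuclei, the mural cells of small vessels, at 37.8 and 48.7 CPM (WT-CD), 86.8 and 63.7 CPM (R403Q-CD) and 33.3 and 41.2 CPM (R403Q-EMPA). It was the only member to pass the filter on low counts in a class tested besides fibroblasts. Its log2 fold change between R403Q-EMPA and R403Q-CD was -1.03 (SE 0.43), given with no test since the members were chosen for their change in R403Q-EMPA. In that class edgeR called 15 of 6027 genes (0.249%). No member passed the filter in endothelial- or cardiomyocyte-type nuclei. Gna14 was also seen in smooth muscle-type nuclei, with 28 UMIs in 109 nuclei.

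St18 lay far higher in myeloid-type nuclei than in fibroblast-type nuclei. It lay there at 80.4 and 188 CPM (WT-CD), 142 and 116 CPM (R403Q-CD) and 114 and 96.6 CPM (R403Q-EMPA). The treated libraries were below both R403Q-CD libraries, on 19 to 68 UMIs per library, while WT-CD overlapped both other groups. Fibroblast-type nuclei held 13.8% of its UMIs. Markers of myeloid cells (Mrc1, F13a1, Csf1r and Adgre1) summed in fibroblast-type nuclei to 92.6 to 241 CPM in WT-CD, 138 to 141 in R403Q-CD and 71.0 to 106 in R403Q-EMPA, and each of the 4 was detected. Their part in the St18 level was not tested.

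Lrrc7 lay at 0 to 9.96 CPM in endothelial-type nuclei, the top value from 20 UMIs in 2 nuclei of WT-CD replicate 1. In myeloid-type nuclei it lay at 0 to 27.8 CPM on 12 UMIs in all. No class other than the fibroblasts held enough of it to compare the groups.

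**Figure D3:**
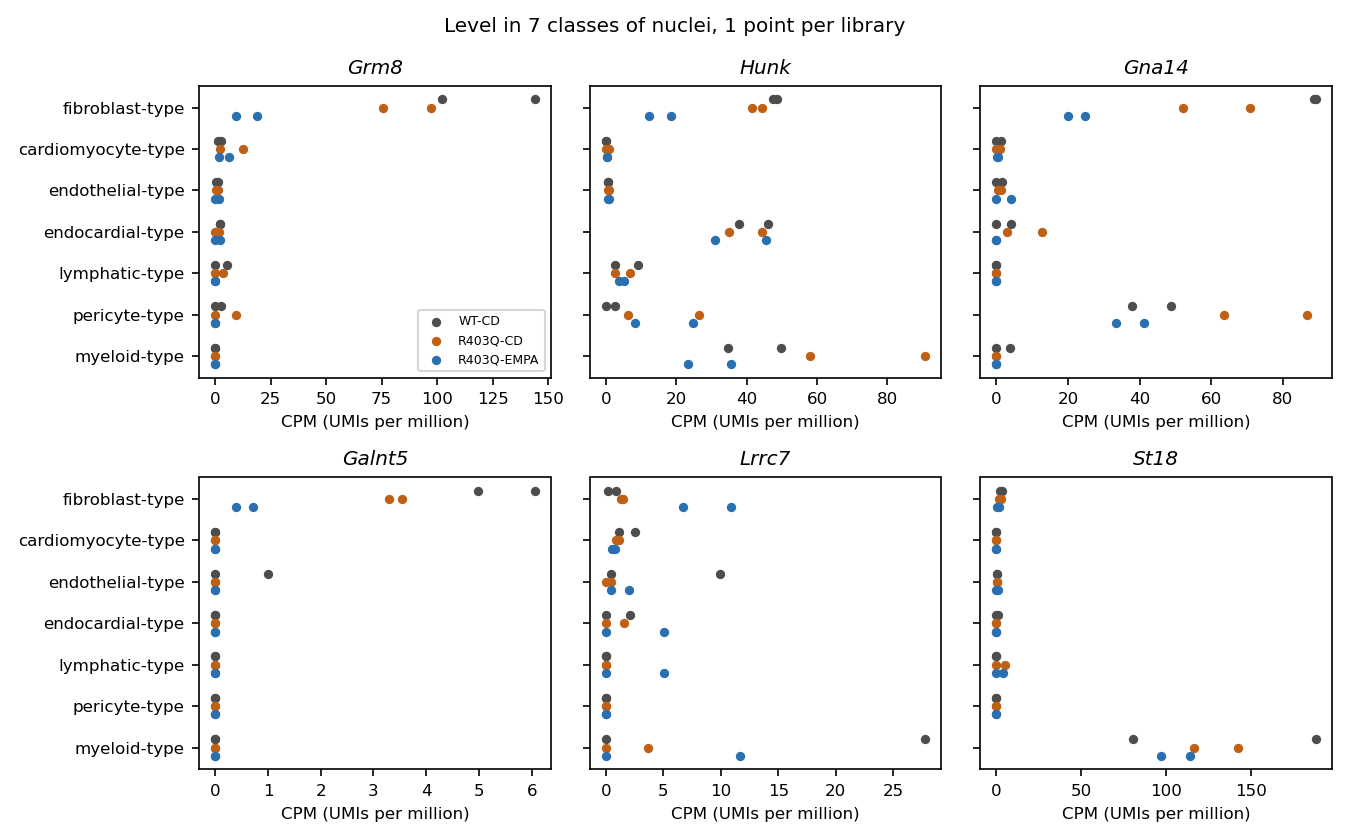
Level of each member in CPM (horizontal axis) in 7 classes of nuclei, 1 point per library and coloured by group. Grm8 and Galnt5 stand out in fibroblast-type nuclei, Hunk also in endocardial- and myeloid-type nuclei, Gna14 also in pericyte-type nuclei, and St18 in myeloid-type nuclei at 80.4 to 188 CPM.

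Relatives of each member were examined as 8 lists. Grm7, another metabotropic glutamate receptor of the inhibitory class, lay at 33.8 and 26.2 CPM (WT-CD), 32.1 and 48.1 CPM (R403Q-CD) and 48.8 and 59.5 CPM (R403Q-EMPA), and differed by 0.40 on the log2 scale against R403Q-CD (SE 0.21, adjusted p = 0.456 in edgeR), which did not pass the test.

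The numbers of list genes called below stand against 0%, 0.427% and 1.09% of all genes called in the 3 comparisons, at which lists of this size hold few or no calls, so a count of 0 says nothing particular about a list. Of the 12 other G protein alpha subunits tested, 0 were called in any of the 3 comparisons. Gnaq, the broadly expressed relative of Gna14, lay at 400 to 467 CPM in all 6 libraries, and its log2 fold change against R403Q-CD was 0.03 (SE 0.15, adjusted p = 0.959 in edgeR). Gna11 had 0.15 (SE 0.15). Gnao1, the list gene with the most counts, had -0.35 (SE 0.25). Of the phospholipases C beta downstream of Gq, 3 were tested and 0 called, with -0.42 (SE 0.17) for Plcb4 and 0.42 (SE 0.22) for Plcb1. The median over the alpha subunits was 0.05 and over all genes 0.00.

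Among 14 other kinases of the AMPK group 0 were called, and Sik3 had a log2 fold change of -0.03 (SE 0.17) against R403Q-CD. Among 12 other GalNAc transferases 0 were called, and Galnt17, with the most counts, had 0.40 (SE 0.19). Of 11 enzymes that extend O-glycans, 1 was called in any comparison. Gcnt4, which adds a branch to core 1 O-glycans, lay at 1.60 and 1.14 CPM (WT-CD), 2.29 and 2.34 CPM (R403Q-CD) and 8.49 and 4.51 CPM (R403Q-EMPA), a log2 fold change against WT-CD of 2.24 (SE 0.40, adjusted p = 0.0407 in edgeR). That call was lost in 7 of 15 alternatives, with adjusted p up to 0.355 without R403Q-EMPA replicate 1 and also without WT-CD replicate 2 or either R403Q-CD library. Among 14 scaffolds and partners of densin 0 were called, with -0.14 (SE 0.13) for Camk2d, the list gene with the most counts. Myt1l, the relative of St18 that could be tested, had 0.49 (SE 0.57).

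**Figure D4:**
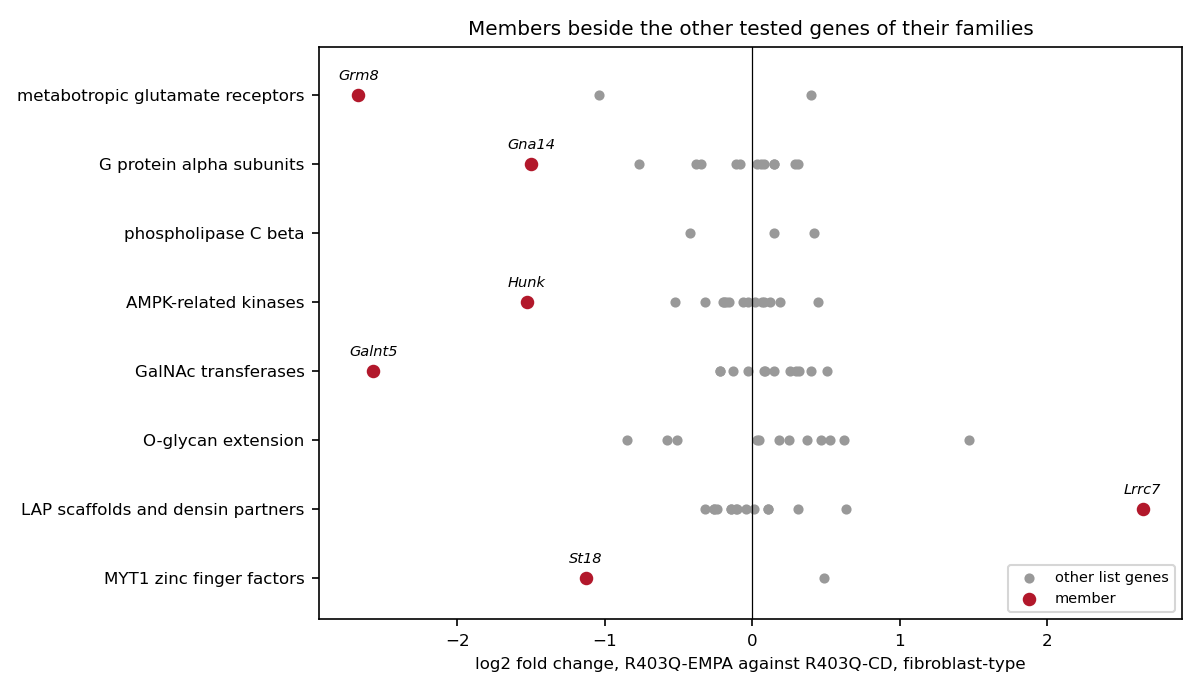
Log2 fold change between R403Q-EMPA and R403Q-CD in fibroblast-type nuclei (horizontal axis) for the members (red, named) and the other tested genes of their lists (grey), 1 row per list. The members were chosen on this difference. The median of the other alpha subunits is 0.05, while Gna14 lies at -1.50.

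The genes with the most similar pattern were sought over 50 class-by-library sums in 9 classes, by Pearson's r of log2(CPM + 2) among 15669 genes. The points share libraries and classes and include the treated fibroblast-type sums, so r and the levels of the genes found are a description. For Grm8 they were Gm15958 (r = 0.919), 4930474M22Rik (0.900) and Nat8f3 (0.892), and for Galnt5 Nat8f7 (0.949), 4930474M22Rik (0.928) and Nat8f3 (0.927). Nat8f3 lay at a mean of 28.9 CPM in the 4 untreated libraries and 9.31 CPM in the treated ones (log2 fold change against R403Q-CD -1.42, SE 0.31). Nat8f7 lay at 6.77 and 1.91 CPM. For Gna14 the closest were Ebf2 (0.938), Heyl (0.937) and Gm42679 (0.931). Ebf2 had a log2 fold change of -0.55 (SE 0.21) and Heyl of -0.19 (SE 0.18).

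For Hunk the close genes included Pla2g4a (0.822), which encodes a cytosolic phospholipase A2, and Apoe (0.746), which encodes apolipoprotein E. Neither was lower in treated fibroblast-type nuclei: Pla2g4a lay at a mean of 170 CPM in the 4 untreated libraries and 201 CPM in the treated ones, and Apoe at 307 and 386 CPM. For St18 the closest were the macrophage gene Siglec1 (0.975), Fcna (0.974) and Gm49144 (0.973). All 3 were sparse in fibroblast-type nuclei. Siglec1 lay at a mean of 1.16 CPM in the untreated libraries and 0.288 CPM in the treated ones (log2 fold change against R403Q-CD -1.88, SE 0.82). Fcna lay at 1.16 and 1.07 CPM (-0.08, SE 0.72) and Gm49144 at 0.515 and 0.393 CPM. For Lrrc7 no gene came close, the highest r being 0.617 for Gm41609, 0.615 for Ugt1a5 and 0.598 for Sdf2l1.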

How the data were processed

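Nuclei of the left ventricle were profiled on a droplet platform. The authors deposited, for each of 6 libraries, a matrix of raw UMI counts per gene and barcode; per the labels' processing notes these came from Cell Ranger 8.0.1 and GRCm39. Whether intronic reads were counted was not given in the sources used here. Barcodes with at least 500 UMIs, 300 genes and at most 5% mitochondrial UMIs were kept, and doublets (3.68% to 6.45% per library) were removed with scrublet (scanpy 1.11.5, seed 1). Classes were set by marker UMIs (at least 3, and at most 1 of other classes, with cardiomyocytes at 5% or more of UMIs from Ttn, Ryr2 and Myh6), not by clustering, so class names rest on these markers only. The members, lists and gates were chosen with earlier results of these data known. CPM (counts per 1e+06) are relative to all UMIs of the class in that library. Sums per library were tested with edgeR 4.0.16 (R 4.3.3; filterByExpr, TMM, quasi-likelihood F test over all 6 libraries with 3 residual degrees of freedom, Benjamini-Hochberg adjustment), and the step was tested on simulated data. SE was derived from the fold change and F. Replicates differed by more than sampling noise (chi-square per degree of freedom 3.24 to 21.0). Named genes were the members, the gene with the most counts and up to 3 called genes of each list, and the 3 genes most like each member; Grm7, Gnaq, Gna11, Plcb1 and the named members of the marker sets were added as context after their values were seen. Some genes that these rules name are not reported here. Alternatives were DESeq2 1.42.0, no low-count filter, only the 2 groups compared, no mitochondrial filter, doublets kept, a stricter gate of 5 UMIs, each library left out, no thinning and, chosen after seeing the data, fibroblast-type nuclei without the Postn/Cilp/Thbs4, the Kcnip1/Tenm4 or the Fbn2/Pappa/Fgf10 set. Wilson intervals are at 95%.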

Additional observations from a re-analysis of the deposited data

Results flagged for a closer look

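In 4 flagged cases, and 1 more given last, both treated libraries lay on the opposite side from fibroblast-type nuclei in another class. The difference between classes was not tested. Hunk in pericyte-type nuclei was 15.2 CPM higher in R403Q-EMPA than in WT-CD (means 16.6 and 1.35 CPM), on 6 and 3 UMIs against 1 and 0, and in endothelial-type nuclei 0.253 CPM higher (0.828 and 0.575 CPM), on 4 and 2 UMIs against 1 and 3. Lrrc7 in cardiomyocyte-type nuclei differed by -0.328 CPM between R403Q-EMPA and R403Q-CD (0.673 and 1.00 CPM) and by -1.17 CPM between R403Q-EMPA and WT-CD (0.673 and 1.84 CPM), on 1 or 2 UMIs per library. Hunk in cardiomyocyte-type nuclei lay at 0.401 and 0.273 CPM in R403Q-EMPA, on 1 UMI each, and at 0 CPM in both WT-CD libraries. All these counts lie near the 3 UMIs that a count of 0 allows.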

How the results depend on the processing

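For the members in fibroblast-type nuclei, the direction of the log2 fold change in R403Q-EMPA against either other group held in all alternatives run. The selection of the members largely fixed this, so only the ranges are informative. Grm8 ranged from -3.26 to -2.19 against R403Q-CD, Hunk from -1.87 to -1.22, Gna14 from -1.71 to -1.25, Galnt5 from -3.09 to -2.28, Lrrc7 from 1.62 to 3.06 and St18 from -2.50 to -0.56 (log2). Against WT-CD they ranged from -3.75 to -2.68, -2.02 to -1.37, -2.21 to -1.85, -3.77 to -2.96, 3.29 to 5.48 and -2.69 to -0.75 in the same order. Between R403Q-CD and WT-CD no member passed the test in any alternative, and the St18 log2 fold change of -0.18 became 0.08 with the stricter gate and ranged from -0.51 to 0.09 with 1 library left out. Among the other named genes against R403Q-CD, Gnaq (-0.02 to 0.08), Sik3 (-0.08 to 0.02), Myt1l (-0.14 to 1.62) and Heyl (-0.50 to 0.07) changed sign when 1 library was left out, and Sik3 was 0.01 without the Postn/Cilp/Thbs4 nuclei. The counts of called genes were less stable. DESeq2 gave 9, 273 and 363 genes in fibroblast-type nuclei for R403Q-CD over WT-CD, for R403Q-EMPA over R403Q-CD and for R403Q-EMPA over WT-CD, in place of 0, 66 and 169; no low-count filter gave 45, 807 and 939, and leaving out the Kcnip1/Tenm4 nuclei gave 1, 54 and 159 and the Fbn2/Pappa/Fgf10 nuclei 0, 50 and 159. Only the 2 groups compared gave 407 and 31 for the comparisons with R403Q-EMPA, and no mitochondrial filter gave 4 and 79. With 1 library left out they ranged from 0 (without R403Q-CD replicate 2) to 451 (without WT-CD replicate 1) and from 12 (without R403Q-EMPA replicate 1) to 795 (without WT-CD replicate 1). In pericyte-type nuclei the 15 calls became 3 with DESeq2, 52 with no low-count filter, 7 with the stricter gate and 23 to 44 with 1 library left out, and the Gna14 log2 fold change ranged from -1.23 to -0.73. The cause was not tested. In the thinned shares, the Hunk difference between R403Q-CD and WT-CD of -0.863 points was 0.130 without thinning. For St18 the difference ranged from -0.221 to 0.0157 points between R403Q-CD and WT-CD and from -0.148 to 0.0472 points between R403Q-EMPA and R403Q-CD with 1 library left out. No member passed the filter in endothelial- or cardiomyocyte-type nuclei, so the calls there are not reported. No paired analysis was possible because the labels give no replicate numbers shared between groups. Galnt5, St18 and Lrrc7 rest on 2 to 76 UMIs per library, which limits their precision.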

Other observations

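Nuclei that met no class gate held 61.0% of the St18 UMIs, 37.3% of those of Lrrc7, 27.6% of those of Hunk, 17.9% of those of Gna14 and 5.47% of those of Grm8. In these nuclei Grm8 lay at 1.65 to 5.08 CPM and St18 at 2.17 to 7.36 CPM per library, and treated and untreated libraries overlapped for both. Gna14 lay at 3.86 and 4.25 CPM in R403Q-EMPA against 8.82 to 13.3 CPM in the untreated libraries. Hunk lay at 5.46 and 7.41 CPM against 9.51 to 13.5 CPM.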
